A study of Mus musculus with 3 samples.

Results

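The major satellite of the mouse was examined at places taken as assembled satellite in mm9. These were stretches of 40 kb at the start of chromosome 9 (chr9:3000001-3040000) and 10 kb in chromosome 2 (chr2:98500001-98510000). Their mm9 sequence was not read, so what share of each stretch is satellite is not known. The members were all 200-base bins of these stretches, 250 of 13628742 nuclear bins, with 200 on chromosome 9 and 50 on chromosome 2. The rule for membership uses position alone, though the places themselves were picked with earlier results of these data known. RNA came from embryos at the 2-cell stage (embryonic day 1.5), with 1 library for each of 3 litters and a single group. The mothers were of mixed strain, LSD1 FL/FL and ZP3::Cre negative, so every litter came from a mother with floxed alleles of the histone demethylase LSD1 and no Cre. The labels name the fathers as wild type CB6 males in one place and as C57/Bl6J in another. Each library pools the embryos of a litter, and there is no contrast between conditions.

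The major satellite is a tandem repeat that fills the pericentromeric heterochromatin of mouse chromosomes. It is AT-rich, it is normally packed with repressive histone marks, and its copies cluster into chromocentres. Transcripts of the satellite are known from early mouse embryos, in which pericentromeric heterochromatin is being built anew. A genome assembly holds only a small part of the satellite that a cell carries, so these bins stand for many unassembled copies.

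The sequences below show the repeat unit that the measurements of spacing refer to. They were taken by transcript name from gene models of GENCODE M21 on GRCm38, a different build from that of the deposited files, so no position of theirs was used on mm9. The noncoding gene model Gm26870 on chromosome 9 has a first exon of 583 bases (GRCm38 chr9:3037728-3038310, minus strand). Within it, bases matched those 234 positions further on in 92.8% of comparisons, the highest of all lags from 20 to 400. The median over those lags was 30.7%. Smaller peaks stood at 58 bases with 59.8%, at 118 bases with 53.8% and at 176 bases with 63.6%, which are near 1, 2 and 3 of 4 equal parts of the unit. The first pair of consecutive units of this exon differed at 17 of 234 positions, shown in capitals.
Gm26870 unit 1: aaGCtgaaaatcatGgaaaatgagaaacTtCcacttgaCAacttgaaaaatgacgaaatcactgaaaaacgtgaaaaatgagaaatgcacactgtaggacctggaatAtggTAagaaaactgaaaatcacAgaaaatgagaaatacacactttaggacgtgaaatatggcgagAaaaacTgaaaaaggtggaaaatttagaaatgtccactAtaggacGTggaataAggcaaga
Gm26870 unit 2: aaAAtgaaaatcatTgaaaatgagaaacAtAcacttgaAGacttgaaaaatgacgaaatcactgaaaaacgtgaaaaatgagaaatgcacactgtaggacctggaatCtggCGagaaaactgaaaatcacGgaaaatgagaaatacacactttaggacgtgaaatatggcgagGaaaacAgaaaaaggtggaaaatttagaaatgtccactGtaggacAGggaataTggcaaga
The gene model Gm10801 on chromosome 2 (first exon GRCm38 chr2:98662237-98662522, plus strand) carries related sequence. Its first 234 bases share a run of 62 bases, in capitals, with the reverse complement of the Gm26870 exon.
Gm10801: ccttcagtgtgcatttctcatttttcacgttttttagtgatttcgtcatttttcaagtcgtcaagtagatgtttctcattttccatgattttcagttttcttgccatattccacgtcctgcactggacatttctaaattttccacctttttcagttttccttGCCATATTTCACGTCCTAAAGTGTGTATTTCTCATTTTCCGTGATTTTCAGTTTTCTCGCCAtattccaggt
The GC content was 35.0%, 35.9% and 36.3% in these 3 sequences.

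The deposited coverage of nuclear sequence split exactly into 72-base alignments, which numbered 34014013, 32431630 and 40474940 in litters 1 to 3. An alignment is a place at which a read was written, and a read that fits several places could be written at each. Density is given as RPKM, the alignments on each kb for every 1000000 on nuclear sequence. Coverage holds no strand, so transcripts of the 2 strands of the satellite could not be told apart. In bulk libraries, more cells with satellite RNA and more RNA per cell cannot be told apart either. Whether all alignments in these bins came from RNA was not tested.

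Satellite alignments were present in all litters and differed widely in amount. Litters 1, 2 and 3 had 16051, 53184 and 9048 alignments in the chromosome 9 bins. The density there was 11.8 RPKM (exact 95% Poisson interval 11.62 to 11.98), 41.0 RPKM (40.6 to 41.3) and 5.59 RPKM (5.47 to 5.71), in the same order. Intervals here and below show counting error alone, as if counts were independent. The amplified libraries carry no molecular identifiers, so copies of a molecule count separately. A read may also be written at several places, so these intervals are likely too narrow. Litter 2 stood highest and litter 3 lowest. No interval overlapped another, which does not measure variation between litters.

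The chromosome 2 bins followed the same order at a lower level. They held 1411, 5813 and 918 alignments, or 4.15, 17.9 and 2.27 RPKM, in litters 1 to 3. Over both places the mean density was 17.2 ± 16.8 RPKM (SD, n = 3), and the SD was nearly as large as the mean. Without litter 2 the mean was 7.60 RPKM. Satellite alignments were 0.0513%, 0.182% and 0.0246% of nuclear alignments in litters 1 to 3, with a mean of 0.0860% ± 0.0842.

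Litter 2 exceeded litter 1 by 3.54 fold and litter 3 by 7.39 fold over both places. On chromosome 9 the folds were 3.48 and 7.34, and on chromosome 2 they were 4.32 and 7.90. Litter 1 exceeded litter 3 by 2.11 fold on chromosome 9 and by 1.83 fold on chromosome 2. Across 30798 well covered nuclear windows of 10 kb (100 alignments or more on average), the median folds of litter 2 were 1.12 against litter 1 and 1.06 against litter 3. With 1 library per litter, the difference between litters has no replicate check and was not tested.

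**Figure D1:**
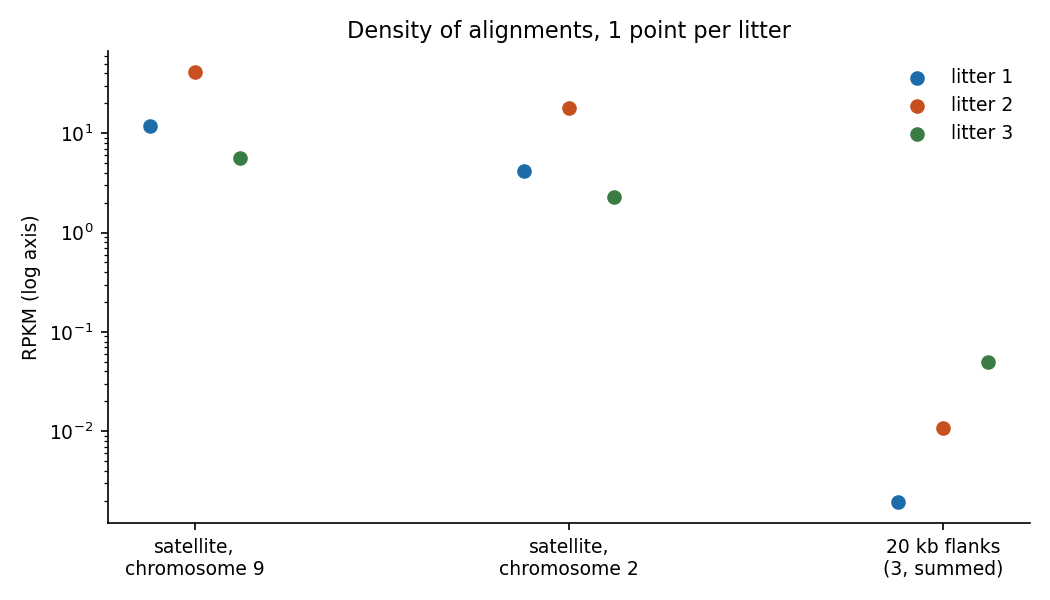
Density of alignments in RPKM (log axis) in the satellite bins of chromosome 9, those of chromosome 2 and 3 flanks of 20 kb summed, with 1 point per litter. Litter 2 is the highest at both satellite places, at 41.0 and 17.9 RPKM, and all flank points lie at 0.0502 RPKM or below.

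The order of litters was also counted over bins kept by litters 1 and 3 alone, so that litter 2 had no part in the filter. Of 137 satellite bins with a mean of at least 10 alignments in those litters, 136 were highest in litter 2, against 18.5% of 235717 nuclear bins kept the same way. In 130 of the 137, litter 2 was over 2 fold above each of the other litters, against 6.8% of nuclear bins. The bin that departed, named after its values were seen, was chr9:3024601-3024800 with 16, 5 and 4 alignments in litters 1 to 3. The order litter 2, litter 1, litter 3 was found in 128 of the 137, so litters 1 and 3 changed places in some bins. The median fold of litter 2 over these bins was 3.54 against litter 1 and 7.13 against litter 3, and over the nuclear bins it was 0.540 and 0.499. A filter on litters 1 and 3 favours those litters, so the nuclear shares and folds are not a neutral background. Over the 10 kb windows, kept by the mean of all litters, the folds were 1.12 and 1.06. The satellite bins are not independent, because many of their alignments have the same counts at several places, as described further on.

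The litters also differed in how often alignments started at the same base. Distinct start positions over both places numbered 5432, 10113 and 4530 in litters 1 to 3. Per 1000000 distinct nuclear starts these were 574, 890 and 431, so litter 2 was 1.55 fold above litter 1 and 2.06 fold above litter 3 on this scale. Repeated alignments, those at a start already used, were 68.9%, 82.9% and 54.5% of satellite alignments. Over all nuclear alignments they were 72.2%, 65.0% and 74.0%, where litter 2 was the lowest and not the highest. The part of amplification in the difference between litters was not tested.

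Alignments were present in all 3 litters in 178 of 200 bins on chromosome 9 and in 12 of 50 bins on chromosome 2, against 1.52% of all nuclear bins. At least 1 RPKM in all litters was reached by 119 bins on chromosome 9 and 8 on chromosome 2, or 127 of 250, against 0.669% of nuclear bins. No litter had an alignment in 10 bins on chromosome 9 and 33 on chromosome 2. Of the 10, 8 were the last of the region (chr9:3038401-3040000), so the covered part of chromosome 9 ended at about 38.4 kb.

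Within chromosome 9 the density rose and fell sharply between neighbouring bins, and in the same bins in each litter. The highest bin, chr9:3024401-3024600, had 99.1, 365 and 50.4 RPKM in litters 1 to 3. The bin chr9:3000401-3000600 followed with 89.8, 330 and 37.7 RPKM. The bins chr9:3020801-3021000 and chr9:3000801-3001000 had 76.1, 271 and 33.5, and 69.4, 250 and 26.7 RPKM. Litter 2 was highest and litter 3 lowest in each of these bins. The median bin of chromosome 9 had 3.75, 12.3 and 1.91 RPKM. The 20 bins with the highest mean density, 10% of the place, held 46.0%, 47.8% and 44.9% of its alignments.

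Across 156 chromosome 9 bins with a mean of at least 10 alignments, log2 density (pseudocount 0.1) had a Pearson r of 0.959 between litters 1 and 2. It was 0.915 between 1 and 3, and 0.946 between 2 and 3. Spearman rho for these pairs was 0.967, 0.935 and 0.955. Across the 40000 single start positions, r of log2(count + 1) was 0.796, 0.684 and 0.714. These correlations run along one sequence and describe a shared pattern of places. Bins and positions are not replicates, and no p is given.

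On chromosome 2 the alignments sat in a short block. A run of 5 bins, chr2:98506601-98507600, held 1187, 4872 and 744 alignments in litters 1 to 3, which is 84.1%, 83.8% and 81.0% of that place. Its highest bin, chr2:98507201-98507400, had 65.6, 292 and 34.7 RPKM and was among the 5 densest of all 250. The next largest patch, the bin chr2:98502401-98502600, had 128, 473 and 80 alignments.

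**Figure D2:**
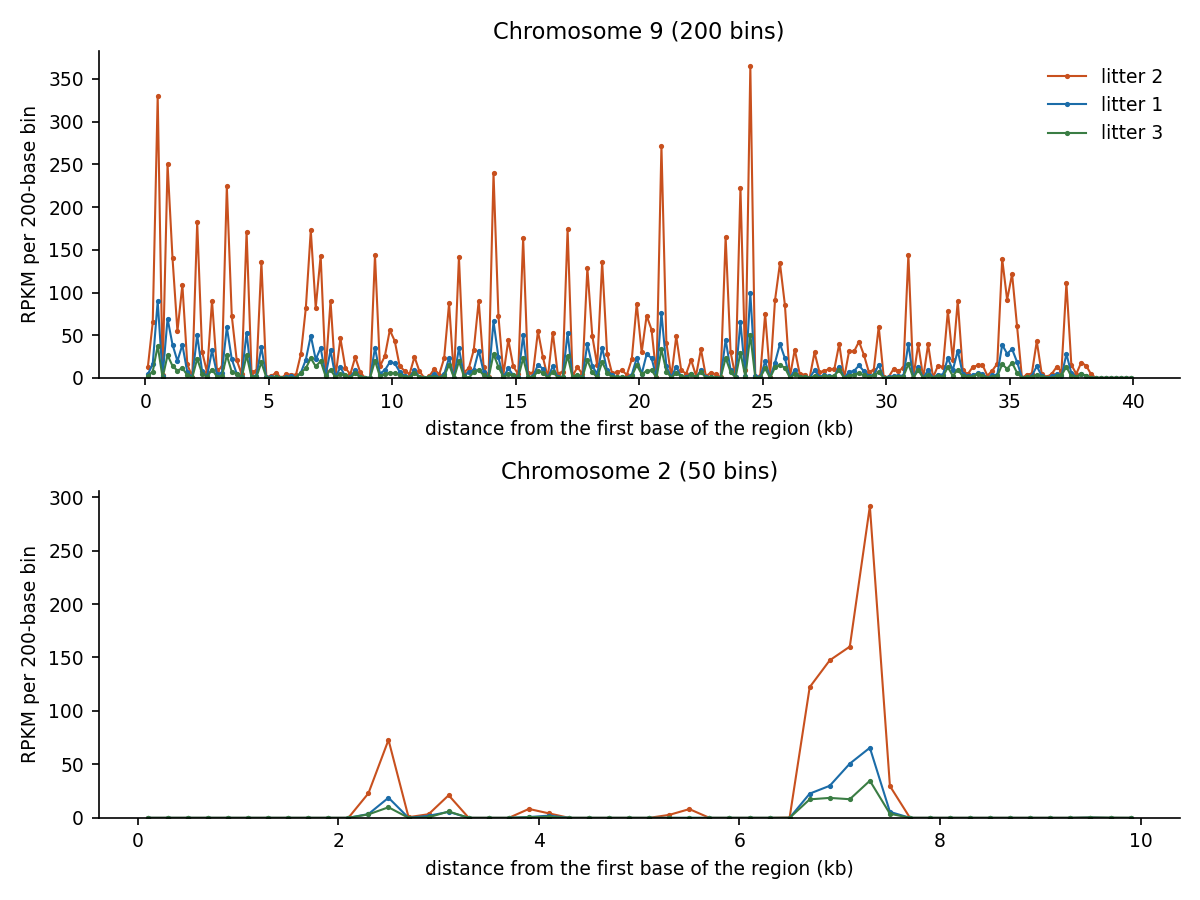
Density of each 200-base bin in RPKM against distance in kb from the first base of the region, for chromosome 9 (200 bins) and chromosome 2 (50 bins), with 1 line per litter. Peaks fall in the same bins in all litters, litter 2 is the highest line at the peaks, and chromosome 2 is covered mainly in 5 neighbouring bins.

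Among bins with a mean of at least 10 alignments over the litters, the largest SD of log2 density was in chr2:98505401-98505600, with 53 alignments in litter 2 and 0 in litters 1 and 3. This bin reached that mean through litter 2 alone, so its large SD follows in part from the filter. A count of 0 allows up to 3 alignments by counting error. The bin chr9:3013001-3013200 had 45, 74 and 3 alignments in litters 1 to 3, with litter 3 far below both of the others. The bin chr9:3038201-3038400, the last with alignments on chromosome 9, had 2, 28 and 1. It too reached the mean of 10 through litter 2 alone.

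The median coefficient of variation between litters, less counting variance, was 97.3% over the 168 bins with a mean of at least 10 alignments. Over the 265216 nuclear bins with that mean it was 114%. With a mean of at least 100 alignments it was 98.4% over 70 satellite bins and 55.4% over 50446 nuclear bins, so the comparison with the rest of the genome turns with the minimum. Without litter 2 the satellite value was 45.8%. Litter 2 counts towards the minimum, and by litters 1 and 3 alone 137 satellite bins reach a mean of 10.

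Density on chromosome 9 was 2.84, 2.29 and 2.46 times that on chromosome 2 in litters 1 to 3, a mean of 2.53 ± 0.284 (SD, n = 3). On the log2 scale the mean was 1.33 ± 0.160, with 3 of 3 litters above 0. The sign-flip permutation test, exact and two-sided, cannot go below p = 0.25 with 3 litters and gave that value. Over bins with alignments in all litters (178 and 12), the mean log2 ratio was -0.55, so chromosome 2 was the denser place on that scale. Both ratios depend on how much of each place is satellite sequence, which was not checked.

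The sequence next to the satellite was nearly empty. In the 20 kb after the chromosome 9 place there were 2, 0 and 121 alignments in litters 1 to 3. In the 20 kb before the chromosome 2 place there were 0 in every litter, which allows up to 0.00441, 0.00463 and 0.00371 RPKM. In the 20 kb after it there were 2, 21 and 1. Before the chromosome 9 place, no litter had an alignment in the first 3000000 bases of the chromosome, and this side was left out of the ratio. The other 3 flanks together had 0.00196, 0.0108 and 0.0502 RPKM. Whether they are fully assembled was not checked, because no genome of mm9 was used.

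The satellite exceeded these flanks by 5239 fold in litter 1, 3371 fold in litter 2 and 98.0 fold in litter 3. On the log2 scale the mean ratio was 10.23 ± 3.15 (SD, n = 3), with 3 of 3 litters above 0 (exact sign-flip permutation p = 0.25, again the lowest possible). The satellite bins stand for many unassembled copies and a read may be written at several of their places, so single copies are not compared. The size of this ratio also depends on a few flank alignments, 4 in litter 1. Its log2 mean was 8.89 with flanks of 50 kb, 8.69 with distinct start positions and 6.70 with a pseudocount of 0.1 RPKM. In litter 3, 121 of the 122 flank alignments lay after chromosome 9, at 118 start positions. Litter 3 therefore had the most flank alignments and the fewest satellite alignments.

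Start counts along chromosome 9 had an autocorrelation near 0 at the length of the sequence unit. The autocorrelation of log2(start count + 1) at 234 bases was -0.0031, -0.021 and -0.012 in litters 1 to 3. It fell steadily with distance at short range, from 0.386 ± 0.0858 (SD, n = 3) at 20 bases to 0.0812 ± 0.0299 at 58 bases and 0.0122 ± 0.0134 at 80 bases. Between 100 and 400 bases the highest value was reached at 343, 338 and 340 bases, with 0.0480, 0.0352 and 0.0423. The median over those lags was 0.0017, -0.0015 and -0.0026. With lags up to 1000 bases the mean over litters peaked at 622 bases, at 0.0739. At 468 bases, which is 2 units, the autocorrelation was 0.0372, 0.0484 and 0.0399, as high as near 340 bases. All of these values beyond 80 bases are weak.

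On chromosome 2, where the alignments sit in a block, the autocorrelation was higher over the whole range of 100 to 400 bases. At 234 bases it was 0.299, 0.344 and 0.255, and over lags of 100 to 400 bases its median was 0.238, 0.332 and 0.1996. Its highest values, 0.317, 0.480 and 0.274, were at 117, 117 and 120 bases. At 100 bases it was already 0.304, 0.465 and 0.247, so the highest lag does not stand apart. Start counts of chromosome 9 folded by 234 bases had an r of 0.565 between litters 1 and 2, 0.429 between 1 and 3, and 0.418 between 2 and 3. Folded by 340 bases, a lag chosen on these data, r was 0.714, 0.573 and 0.611. The unfolded start positions already had an r of 0.796, 0.684 and 0.714 for these pairs, so the folded values do not show a period. Between the folded profiles of the 2 places, r at the shift and orientation chosen as best was 0.276, 0.412 and 0.374. The orientation was reversed in each litter, but the shift was 166, 166 and 134 bases in litters 1 to 3. The values therefore do not describe a single placement.

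The repeat appeared instead in which start positions had equal counts. A count set is the 3 counts of alignments that start at a base, 1 per litter. Satellite starts with 10 or more alignments in each litter numbered 21, and 21 of these had a count set seen at another nuclear base (exact 95% binomial interval 83.9% to 100%). Positions that share a set are not independent trials, so this interval is likely too narrow. The share over all nuclear positions with that minimum was 83.8%, so at these low counts a match anywhere in the genome is common. With a minimum of 5 instead, it was 329 of 330 satellite positions against 92.8%. No satellite position reached 20 in every litter.

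A narrower count asked whether a set of counts came back within the satellite itself. Of 1501 satellite start positions with at least 20 alignments over the litters, 1451 (96.7%) had a count set found at another of them. The 1501 positions carried only 234 distinct sets, a number that equals the unit length only at this minimum (401 sets at a minimum of 10, 119 at 30). The median set was found at 5 positions and the most frequent at 34. In all, 184 sets were found at 2 or more positions, 121 at 5 or more and 67 at 10 or more. Inside the 40 kb of chromosome 9, 99.9% of 1392 such positions shared their set. Among 1951 windows of 40 kb with at least 100 such positions the median was 7.27% and the 95th percentile 20.04%, and 10 windows, this one included, were at or above its value. These windows were not matched to the satellite in number of positions or in depth. Sets of low counts coincide more easily among many positions, so these shares are not a neutral background.

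Among the start positions with the most alignments, those of chromosome 9 were copies of one count set. The count set 11, 62 and 9 (litters 1 to 3) was found at 11 satellite positions, among them 3002046, 3003331, 3004676, 3007135, 3009320 and 3012773 of chromosome 9. The 6 highest starts of chromosome 2 recurred less evenly. The starts 98507250, with 9, 47 and 6 alignments, and 98507093, with 9, 37 and 3, had count sets found at 1 satellite position. The set of 98507082 (8, 37 and 4) was at 3 positions, and those of 98507077 (7, 32 and 7) and 98507078 (12, 30 and 1) were at 4 each. The set of 98507290 (11, 31 and 4) was at 10. Of 109 chromosome 2 positions, 53 had a set that was also on chromosome 9, and 47 sets were on both chromosomes.

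**Figure D3:**
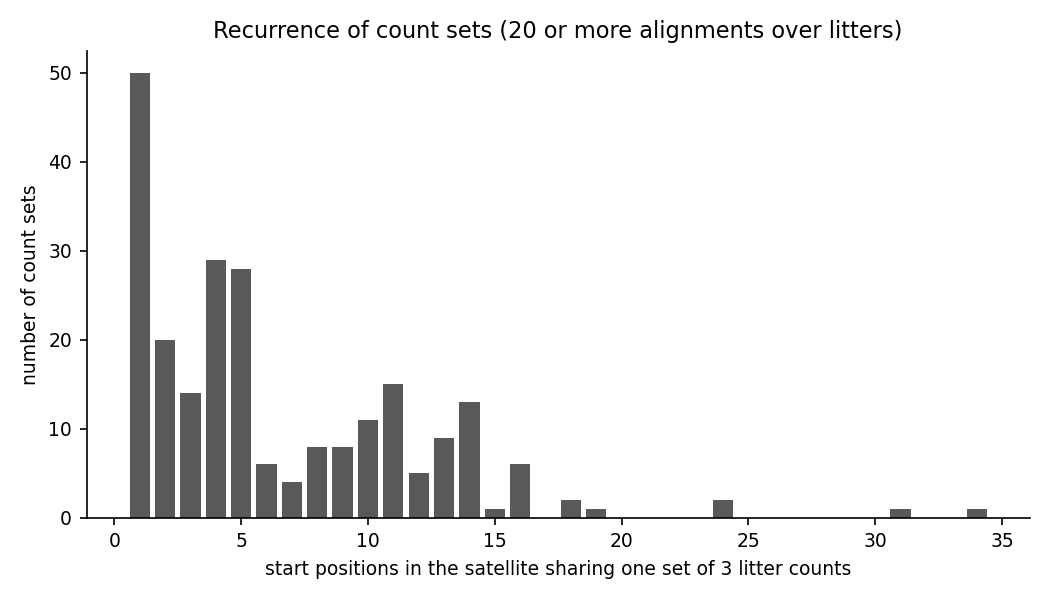
Number of count sets (vertical) against the number of satellite start positions that share one set of 3 litter counts (horizontal), for positions with at least 20 alignments over the litters. Sets at 1 position number 50, the other 184 recur, and the widest is at 34 positions.

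The totals were also taken with each set counted a single time. The alignments at these 1501 positions numbered 10262, 34294 and 5337 in litters 1 to 3. Counted so, they numbered 1485, 5279 and 827, which is 6.91, 6.50 and 6.45 fold fewer. On that scale litter 2 exceeded litter 1 by 3.73 fold and litter 3 by 7.97 fold per nuclear alignment. Positions entered on a sum that litter 2 dominates, which favours litter 2 in these folds. Kept instead by at least 10 alignments in litters 1 and 3 together, 807 positions carried 114 sets, and litter 2 exceeded the others by 2.96 and 6.87 fold with each set counted a single time.

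Under 3 kb, distances between positions with equal count sets were mostly near multiples of the sequence unit divided by 4. On chromosome 9, 1141 pairs of such positions lay under 3 kb apart. Of these, 872 (76.4%) were within 3 bases of a multiple of 58.5 bases, the unit divided by 4, against 11.9% of all 165936 pairs of positions with that depth and distance. Within 3 bases of a multiple of 117 bases there were 527 (46.2%), against 7.19%. For multiples of the full 234 bases it was 267 (23.4%), against 4.15%. Multiples of 234 are also multiples of 58.5, so spacing by the full unit is not told apart from spacing by its parts. Taken modulo 234, the most frequent distances were 176 bases with 119 pairs, 233 with 92, and 0 and 175 with 78 each. Distances of 114, 115 and 116 bases had 64, 61 and 61 pairs, and 56 bases had 57. These lie near the lags of 58, 118, 176 and 234 bases at which the Gm26870 exon printed above resembles itself. A distance of 79 bases, which is near no multiple of 58.5, also had 57 pairs.

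The pattern weakened with distance. Over the full 40 kb, 24.8% of 7129 pairs with equal sets lay within 3 bases of a multiple of 58.5 bases, against 11.3% of all pairs. Neighbouring starts enter as separate pairs at one distance, so pairs are not independent and no test is given.

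**Figure D4:**
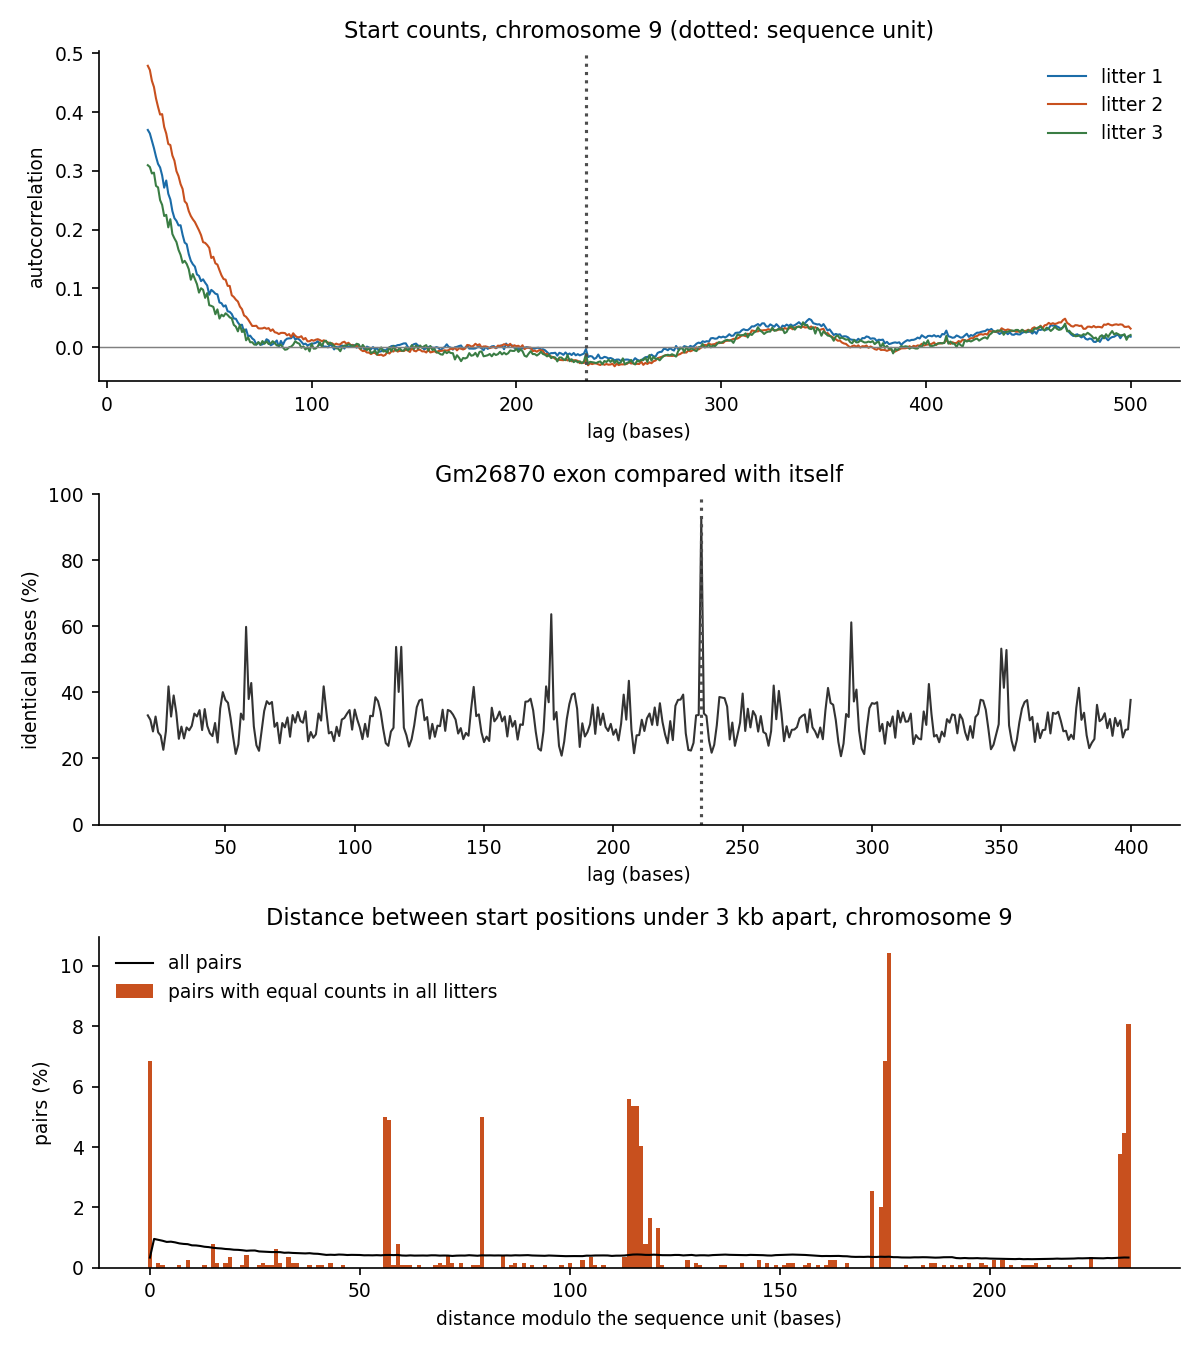
Top, autocorrelation of log2(start count + 1) on chromosome 9 against lag in bases, by litter, middle, percent of identical bases in the Gm26870 exon against lag, and bottom, percent of pairs of start positions under 3 kb apart against their distance modulo 234 bases, for pairs with equal counts in all litters (bars) and all pairs (line). The autocorrelation is near 0 at the dotted unit of 234 bases, where sequence identity peaks at 92.8%, and the bars cluster near 0, 57, 115, 175 and 233 bases with a separate bar at 79.

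Longer stretches of chromosome 9 also matched each other. At a distance of 6781 bases, 143 start positions had at least 10 alignments over the litters at both ends, and 114 of them (79.7%) had equal counts in every litter. At 10729 bases it was 105 of 136 (77.2%). The next 4 distances by the number of equal positions were 17510 bases with 90 of 231 (39.0%), 12014 bases with 82 of 187 (43.9%), 3453 bases with 81 of 188 (43.1%) and 13828 bases with 77 of 128 (60.2%). These 6 were chosen as the highest of all distances tried, so they are a description. The distance of 6781 bases is 28.98 units, and the other 5, in the order given, are 45.85, 74.83, 51.34, 14.76 and 59.09 units. Between chromosome 2 and chromosome 9, the best placement had 27 of 67 equal positions in reverse orientation and 2 of 92 in the same orientation. Outside the 2 places, windows of 1 kb in which at least 90% of 20 or more such starts carried count sets of the satellite were 0.0319% of 6263 windows, and they are described with the closing observations.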

How the data were processed

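RNA of 3 litters of 2-cell embryos from whole lysates went through SPIA amplification (Nugen Ovation) and shearing before Illumina library construction, as the labels' protocols say. The submitters' processing notes name Bowtie and mm9. How Bowtie treated mismatches and reads that fit several places, and its version, is not given in the sources used here. Per the file headers, the authors deposited tracks of an alignment file: their coverage signal counts the reads over each base, in whole numbers. No gene annotation of mm9 was used here.

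Alignments of 72 bases were recovered from the coverage of nuclear chromosomes, with 0 negative starts in every litter. The recovery, the search for a period, the recurrence of counts and the spread were tested on simulated data. RPKM uses the nuclear total of each litter. Means have SD over litters, and ratios were tested over litters by exact sign-flip permutation, two-sided. Values with 1 library per litter have no test. The labels call the litters separate, and their spread may still be partly technical.

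Bins were named by rule: the 5 densest on average and 3 whose log2 density varied most by SD, with the 6 highest starts of each place. The members, lists and measures were chosen with earlier results of these data known. The count sets within the satellite, pair distances, runs at one distance, the sequence unit the search for other places and the filters by litters 1 and 3 were chosen after seeing the data. Software was Python 3.11.15 with scipy 1.17.1, numpy 2.4.6, matplotlib 3.10.9 and pandas 2.3.3.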

Additional observations from a re-analysis of the deposited data

Results flagged for a closer look

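Outside the bins, windows of 1 kb with at least 20 start positions of 20 or more alignments over the litters were searched for count sets of the satellite. Of 6263 such windows, 2 (0.0319%) had at least 90% of their positions in those sets. They lie outside the satellite bins and their flanks, and enter the comparisons above only as part of the nuclear background.

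On chromosome 12, 81 of 81 positions (100%) had a count set of the satellite, in a covered stretch with starts from 3108398 to 3110048 (mm9). It held 674, 2435 and 354 alignments in litters 1 to 3, or folds of 3.79 and 8.58 for litter 2 against litters 1 and 3 per nuclear alignment. At the best placement on chromosome 9, in reverse orientation, 84 of 90 start positions with at least 10 alignments at both had equal counts. The 20 kb on each side held 68, 116 and 198 alignments in all.

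On chromosome 13, 28 of 28 positions (100%) had a count set of the satellite, with starts from 77578166 to 77578226. It held 214, 885 and 154 alignments, with folds of 4.34 and 7.17 for litter 2 against litters 1 and 3. The best placement on chromosome 9, in the same orientation, had 32 of 34 equal positions. The 20 kb on each side held 233, 79 and 6 alignments, more than the stretch itself in litter 1. Both places were chosen by the counts of the satellite, so their folds between litters follow from that choice. Whether their sequence is satellite was not tested, because no genome of mm9 was used here.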

How the results depend on the processing

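Of 91 alternative values, 77 stayed within 1 SD over litters, within 1.5 times for counts and the litter spread, or in the same direction for ratios. Density on chromosome 9 over chromosome 2 turned to -0.551 on the log2 scale with bins covered in every litter. Bins with alignments fell to 124 at a minimum of 10 in each litter. On chromosome 9 the mean of the litters' most autocorrelated lags was 625 bases with lags up to 1000 (622 for the autocorrelation averaged over litters), and the autocorrelation was 0.0275 with presence of a start only. The correlation of folded profiles there was 0.719 with raw counts, 0.319 with presence only and 0.471 folded by the sequence unit (added after seeing the data), and on chromosome 2 it was 0.316 with presence only. The lag on chromosome 2 was 193.7 with raw counts and 108.3 with presence only. The litter spread was 40.3% with distinct start positions. The causes were not tested. Leaving out a litter gave folded correlations of 0.573 to 0.714 on chromosome 9 and 0.417 to 0.567 on chromosome 2, a spread of 45.8% to 107%, a density of 7.60 to 23.3 RPKM, and a share of 0.0380% to 0.117%. Minimums of 20 and 50 alignments in every litter gave no value for equal start counts. No paired analysis was possible because there is 1 group. Counts of at most 62 alignments at a start limit what equal counts can show.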
